A study of Homo sapiens with 12 samples.

Results

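NFKBIA, TNFAIP3, BIRC3, CXCL1, CXCL2, CXCL5, IL1A, IL6, LIF and ICAM1 are target genes of the transcription factor NF-kB, and they encode feedback regulators, chemokines, cytokines and an adhesion molecule. These 10 genes were taken by symbol from a table of 25365 gene names, as a set drawn up with earlier results of these data known, and all 10 were found in it. The table holds RNA-seq of A549 cells, an epithelial line from a human lung adenocarcinoma, either wild type (WT) or PARP3-/-. Cells of each genotype received vehicle (DMSO) or 1 μM pyridostatin, a small molecule that binds and stabilizes G4 DNA, for 24 h. This gave 4 groups, WT vehicle, PARP3-/- vehicle, WT pyridostatin and PARP3-/- pyridostatin, each with 3 libraries described as biological replicates. The PARP3-/- A549 cells were made by transient Cas9 expression and cloned by serial dilution, so the PARP3 deletion and the choice of clone cannot be told apart.

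NF-kB dimers are held in the cytoplasm by IkB proteins until signals such as TNF or IL-1 lead the IKK kinases to mark IkB for destruction. The freed dimers bind κB sites in DNA and raise the transcription of inflammatory genes, and also of their own inhibitors. NFKBIA (IkBα) recaptures NF-kB, TNFAIP3 (A20) is a ubiquitin-editing enzyme that dampens the signal, and BIRC3 (cIAP2) is a ubiquitin ligase of the TNF receptor pathway. CXCL1, CXCL2 and CXCL5 are chemokines that attract neutrophils through the receptor CXCR2. IL1A and IL6 encode inflammatory cytokines, LIF a cytokine of the IL-6 family, and ICAM1 a surface molecule to which leukocyte integrins bind. Airway epithelial cells are a known source of such chemokines.

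The κB sites are shown here because they are the DNA element through which NF-kB acts on these genes. The 10-base κB consensus was searched on both strands of RefSeq promoter windows (GRCh38.p14) that run from 250 bases before to 50 bases after an annotated transcription start. Of 35114 windows of 300 bases, 5.91% held a match. Among the 9 of the 10 genes with a window, 7 held at least 1 match. The stretches of 30 bases are written on the strand of the gene, with the match in capitals, and lie upstream of the transcribed sequence.
NFKBIA, chr14:35404811-35404840, minus strand: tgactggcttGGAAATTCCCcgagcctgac
TNFAIP3, chr6:137867182-137867211, plus strand: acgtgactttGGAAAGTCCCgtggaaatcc
TNFAIP3, chr6:137867194-137867223, plus strand: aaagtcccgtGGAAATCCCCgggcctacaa
BIRC3, chr11:102317275-102317304, plus strand: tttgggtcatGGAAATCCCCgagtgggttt
BIRC3, chr11:102317339-102317368, plus strand: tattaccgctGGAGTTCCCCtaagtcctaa
CXCL1, chr4:73869304-73869333, plus strand: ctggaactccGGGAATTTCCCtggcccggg
CXCL2, chr4:74099254-74099283, minus strand: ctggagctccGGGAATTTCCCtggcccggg
CXCL5, chr4:73998749-73998778, minus strand: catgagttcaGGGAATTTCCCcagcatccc
IL6, chr7:22727117-22727146, plus strand: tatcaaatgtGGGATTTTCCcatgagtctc

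The 3 chemokines carried the same run of 11 bases, in which a match on one strand overlaps a match on the other, and it began 79 bases before the start of CXCL1, 78 before that of CXCL2 and 91 before that of CXCL5. In NFKBIA the match began 81 bases and in IL6 73 bases before the start. TNFAIP3 had neighbouring matches that began 67 and 55 bases before its start, while those of BIRC3 lay farther out, at 199 and 135 bases. The windows of IL1A and ICAM1 held no match, which says only that the consensus is not within these bases. LIF had no window among the sequences used. A pattern able to form G4 DNA (4 runs of at least 3 G with loops of 1 to 7 bases, on either strand) was in 25% of all windows and in those of 3 of the 9 genes, TNFAIP3, CXCL1 and IL6.

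**Figure D1:**
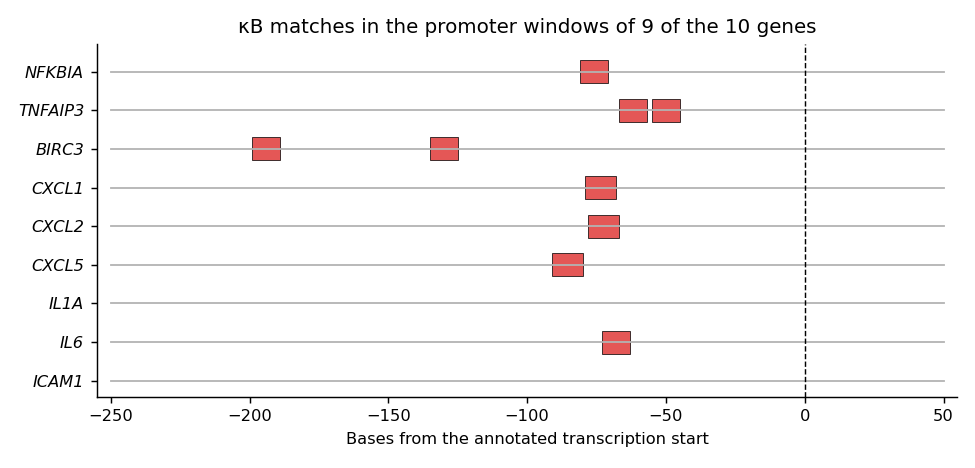
Positions of κB consensus matches (red boxes) in the promoter windows of 9 of the 10 genes, in bases from the annotated transcription start (dashed line). The matches of NFKBIA, TNFAIP3, CXCL1, CXCL2, CXCL5 and IL6 began between 91 and 55 bases before the start, those of BIRC3 at 199 and 135 bases, and the rows of IL1A and ICAM1 are empty.

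Expression was measured in FPKM, a count of fragments divided by transcript length and by the mapped fragments of the library, which is a scale on which levels can be compared between genes. Depth is not given with FPKM, and the steps between low values put it at about 21700000 to 30700000 reads per library (median 25200000). The PARP3 transcript, which would check the genotype labels, was not lower in the libraries labelled PARP3-/-. Its mean was 4.49 FPKM in these 6 libraries and 3.76 FPKM in the 6 WT libraries, without overlap (difference 0.738 FPKM; p = 0.005 by an exact permutation test within treatments, two-sided, the smallest p that 400 arrangements allow). A gene-level value covers the whole transcript and does not read the deleted stretch, so the genotype is given below as labelled. All 6 epithelial markers, among them keratins and EPCAM, exceeded a mean of 1 FPKM, with summed levels of 6912 to 8630 FPKM that KRT7, KRT8 and KRT18 dominated. Of 5 immune markers only CD14 did (mean 4.29 FPKM), while PTPRC reached at most 0.00776 FPKM and CD3E was listed at 0 in every library. The immune marker sum was 2.83 to 4.55 FPKM in WT and 4.39 to 6.31 FPKM in labelled PARP3-/- libraries, and that of 4 fibroblast markers 0.607 to 1.03 and 1.24 to 1.72 FPKM, carried by COL1A1 (mean 1.08 FPKM). The endothelial sum ran from 0.116 to 0.213 FPKM in WT and from 0.245 to 0.375 FPKM in labelled PARP3-/- libraries. These small sums moved with genotype. So did 3 epithelial markers in limma, with EPCAM (log2 fold change -0.53 with vehicle and -0.48 with pyridostatin) and CDH1 (-0.42 and -0.51) lower and KRT19 (0.85 in both) higher in labelled PARP3-/- libraries. The part of these markers in the results was not tested.

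The first question was how the genes differed between the genotypes. In the cells labelled PARP3-/-, the same 4 of 8 tested genes were higher under both treatments, each by less than 1 log2 unit. ICAM1 was lower with vehicle. The share of all genes called higher under both treatments was not counted, so a repeated call is not taken as added support, here or below. With vehicle, TNFAIP3, BIRC3, CXCL2 and CXCL5 were higher and ICAM1 was lower, which makes 5 of the 8 genes tested, whereas 9.41% of all 11881 genes tested were called (6.4% higher and 3.01% lower). With pyridostatin, TNFAIP3, BIRC3, CXCL2, CXCL5 and NFKBIA were higher, again 5 of 8, against 10.9% of all genes (7.07% higher). The median log2 fold change of the 8 genes was 0.21 with vehicle and 0.24 with pyridostatin, beside 0.015 and 0.0083 over all genes tested. These values come from limma on log2(FPKM + 1), with p-values adjusted by Benjamini and Hochberg over all genes tested, and a gene was called at an adjusted p under 0.05. This scale understates the change of genes with low FPKM. None of the 8 genes also passed an absolute log2 fold change of 1, which 0.362% of all genes did with vehicle and 0.396% with pyridostatin. In bulk RNA, a larger share of expressing cells and more RNA per cell cannot be told apart.

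Among the feedback regulators, TNFAIP3 and BIRC3 were higher in labelled PARP3-/- cells under both treatments. TNFAIP3 was at 7.5, 6.29 and 6.70 FPKM in the WT vehicle libraries and at 9.95, 9.56 and 9.13 FPKM in the labelled PARP3-/- vehicle libraries. With pyridostatin it was at 8.77, 8.57 and 8.28 FPKM in WT and at 12.3, 11.9 and 11.3 FPKM in labelled PARP3-/- libraries. The groups did not overlap under either treatment, and a lack of overlap with the labelled PARP3-/- group higher was seen for 15% of all genes with vehicle and 19.3% with pyridostatin. The log2 fold change of TNFAIP3 was 0.43 with vehicle (SE 0.0586, limma adjusted p = 0.000884) and likewise with pyridostatin (adjusted p = 0.000877).

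BIRC3, the ubiquitin ligase, was at 17.7, 15.2 and 16.5 FPKM in WT vehicle libraries and at 22.1, 21.4 and 19.9 FPKM in labelled PARP3-/- vehicle libraries. In the presence of pyridostatin the WT libraries were tightly grouped at 15.5, 15.4 and 15.3 FPKM, and the labelled PARP3-/- libraries were at 18.7, 19.7 and 18.9 FPKM. Both labelled PARP3-/- groups lay above both WT groups, an order whose share among all genes was not counted. The log2 fold change was 0.34 with vehicle (SE 0.0541, limma adjusted p = 0.00227) and 0.29 with pyridostatin (adjusted p = 0.00539).

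NFKBIA, the inhibitor that recaptures NF-kB, was far more abundant than TNFAIP3 and BIRC3, and its difference was smaller. NFKBIA was at 64.9, 72.9 and 65.0 FPKM in WT vehicle libraries and at 70.6, 72.5 and 71.4 FPKM in labelled PARP3-/- vehicle libraries, and these groups overlapped (log2 fold change 0.08, limma adjusted p = 0.416). With pyridostatin, WT libraries were at 64.9, 71.8 and 68.3 FPKM and labelled PARP3-/- libraries higher, at 79.4, 78 and 75.6 FPKM, without overlap (log2 fold change 0.18, SE 0.0512, limma adjusted p = 0.0441). This call was lost when any 1 of 9 libraries was left out, that is, all but WT vehicle replicates 1 and 2 and WT pyridostatin replicate 2, with an adjusted p of up to 0.168 without WT pyridostatin replicate 1.

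The chemokines CXCL1, CXCL2 and CXCL5, which share the same κB run, were not all called. CXCL5 had the highest level of the 10 genes and ranked 178 among all names by mean FPKM. CXCL5 was at 390, 323 and 373 FPKM in the WT vehicle libraries and at 493, 546 and 476 FPKM in the labelled PARP3-/- vehicle libraries. With pyridostatin it was at 292, 351 and 269 FPKM in WT and at 480, 450 and 470 FPKM in labelled PARP3-/- libraries. All 6 labelled PARP3-/- libraries thus lay above all 6 WT libraries, an order whose share among all genes was not counted. Within treatments, a lack of overlap with the labelled PARP3-/- group higher was seen for 15% of all genes with vehicle and 19.3% with pyridostatin. The log2 fold change of CXCL5 was 0.48 with vehicle (SE 0.0989, limma adjusted p = 0.0104) and 0.63 with pyridostatin (adjusted p = 0.00212). The first call was lost without PARP3-/- vehicle replicate 2, the highest library (log2 fold change 0.42, adjusted p = 0.0522).

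CXCL2 was at 59.6, 65.0 and 65.0 FPKM in WT vehicle libraries and at 93.8, 87.3 and 70.3 FPKM in labelled PARP3-/- vehicle libraries. With pyridostatin it was at 55.7, 63.1 and 59.9 FPKM in WT and at 89.1, 86.1 and 71.9 FPKM in labelled PARP3-/- libraries. The groups did not overlap, but the labelled PARP3-/- libraries were spread widely, with an SD of 12.1 FPKM with vehicle and 9.18 FPKM with pyridostatin. CXCL2 was higher by a log2 fold change of 0.39 with vehicle (SE 0.107, limma adjusted p = 0.0438) and of 0.46 with pyridostatin (adjusted p = 0.0197). With vehicle, leaving out any 1 of 10 libraries ended the call, the exceptions being PARP3-/- vehicle replicate 3 and PARP3-/- pyridostatin replicate 3, and the adjusted p reached 0.156 without PARP3-/- vehicle replicate 1. With pyridostatin the adjusted p was 0.0838 without WT pyridostatin replicate 1, 0.0618 without WT pyridostatin replicate 3, 0.0776 without PARP3-/- pyridostatin replicate 1 and 0.0793 without PARP3-/- pyridostatin replicate 2. Of the 75-base windows of CXCL2 transcripts, 7.07% also occur in transcripts of CXCL1, CXCL3 or CXCL5, so a share of its reads could be assigned to a neighbour, while for CXCL1 this was 0.245% and for CXCL5 no window was shared.

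CXCL1, the second most abundant of the 10 genes, was not called in either genotype comparison. CXCL1 was at 140, 148 and 142 FPKM in WT vehicle libraries and at 131, 136 and 126 FPKM in labelled PARP3-/- vehicle libraries. Here the labelled PARP3-/- libraries were the lower ones and did not overlap with WT, as for 9.17% of all genes, but the difference was not called (log2 fold change -0.13, SE 0.0836, limma adjusted p = 0.428). With pyridostatin the WT libraries were at 119, 143 and 109 FPKM and the labelled PARP3-/- libraries at 143, 134 and 132 FPKM, and the groups overlapped (log2 fold change 0.15, adjusted p = 0.309). The WT pyridostatin replicate 2 decided this value, since without it the log2 fold change was 0.26 (adjusted p = 0.0181).

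**Figure D2:**
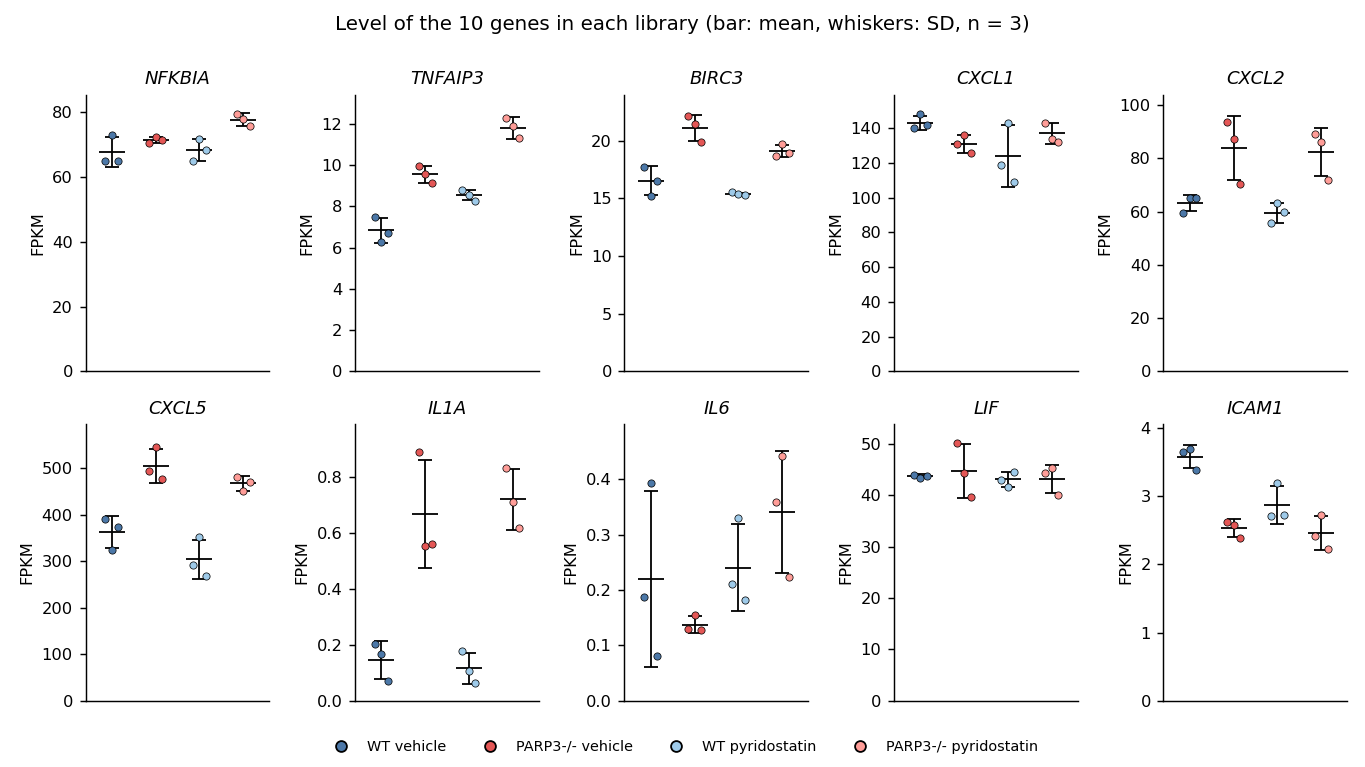
Level of each of the 10 genes in FPKM in the 12 libraries, coloured by group, with the group mean (bar) and SD (whiskers, n = 3) on linear axes that start at 0. All labelled PARP3-/- libraries lie above all WT libraries for TNFAIP3, BIRC3, CXCL2, CXCL5 and IL1A. The share of all genes in this order was not counted. LIF stays between 39.6 and 50.2 FPKM and ICAM1 is highest in WT vehicle libraries.

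Of the cytokines, IL1A and IL6 were near the limit of detection and below the mean of 1 FPKM needed for the limma test. Their mean FPKM values were set against each other in exact permutation tests (two-sided), which with 3 libraries against 3 cannot go below p = 0.1. IL1A was at 0.203, 0.167 and 0.0719 FPKM in WT vehicle libraries and at 0.892, 0.553 and 0.562 FPKM in labelled PARP3-/- vehicle libraries. With pyridostatin it was at 0.177, 0.107 and 0.0649 FPKM in WT and at 0.835, 0.712 and 0.617 FPKM in labelled PARP3-/- libraries. Every labelled PARP3-/- library exceeded every WT library, an order whose share among all genes was not counted. Over both treatments the means were 0.695 and 0.132 FPKM (difference 0.564 FPKM, exact permutation test within treatments, p = 0.005, the smallest possible of 400 arrangements), and p = 0.1 within each treatment. The values correspond to about 3.5 to 54 reads per library, so single IL1A values carry a large counting error. When limma was run on all 19332 genes above 0 without the filter, IL1A had a log2 fold change of 0.54 with vehicle (adjusted p = 0.00344) and of 0.62 with pyridostatin (adjusted p = 0.00133).

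IL6 was at 0.188, 0.393 and 0.080 FPKM in WT vehicle libraries and at 0.129, 0.154 and 0.127 FPKM in labelled PARP3-/- vehicle libraries. In pyridostatin-treated cells it was at 0.211, 0.329 and 0.181 FPKM in WT and at 0.358, 0.441 and 0.224 FPKM in labelled PARP3-/- libraries. The genotypes overlapped under both treatments, and their means over both treatments were 0.239 FPKM for labelled PARP3-/- and 0.23 FPKM for WT (exact permutation test, p = 0.89). The values correspond to about 2.8 to 17 reads per library, and no difference between genotypes was detected.

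LIF, by contrast, was measured at 39.6 to 50.2 FPKM in all libraries. LIF was at 44.0, 43.4 and 43.8 FPKM in WT vehicle libraries and at 50.2, 44.3 and 39.6 FPKM in labelled PARP3-/- vehicle libraries, which lay on both sides of the WT values. With pyridostatin it was at 43.0, 41.6 and 44.6 FPKM in WT and at 44.3, 45.3 and 40.1 FPKM in labelled PARP3-/- libraries. The log2 fold change was 0.02 with vehicle (SE 0.0745, limma adjusted p = 0.909) and 0.0038 with pyridostatin (adjusted p = 0.989). These differences were smaller than the spread between replicates, and their sign changed when libraries were shifted to a common median.

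ICAM1 was the one gene of the 10 called lower in labelled PARP3-/- cells. ICAM1 was at 3.65, 3.69 and 3.38 FPKM in WT vehicle libraries and at 2.62, 2.58 and 2.38 FPKM in labelled PARP3-/- vehicle libraries, without overlap (log2 fold change -0.38, SE 0.0688, limma adjusted p = 0.00554). With pyridostatin it was at 2.71, 3.19 and 2.72 FPKM in WT and at 2.42, 2.72 and 2.23 FPKM in labelled PARP3-/- libraries. These groups overlapped, and the difference was not called (log2 fold change -0.16, adjusted p = 0.174). Its mean in WT pyridostatin libraries, 2.87 FPKM, was between the other groups.

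The next question was what 24 h of pyridostatin did to these genes within each genotype. TNFAIP3 rose in both genotypes and was the one gene called in each comparison, 1 of 8, whereas 4.17% of all genes were called in WT (2.79% higher) and 5.56% in labelled PARP3-/- cells (3.05% higher). The log2 fold change of TNFAIP3 was 0.29 in WT (SE 0.0586, limma adjusted p = 0.0236) and 0.28 in labelled PARP3-/- cells (adjusted p = 0.0211). As the values above show, all pyridostatin-treated libraries exceeded the vehicle libraries of the same genotype, as for 13.4% of all genes in WT and 16.6% in labelled PARP3-/- cells, and WT libraries with pyridostatin stayed below the labelled PARP3-/- libraries with vehicle. The call in WT was lost without WT vehicle replicate 3 (adjusted p = 0.0753) or without WT pyridostatin replicate 1 (0.108), 2 (0.0563) or 3 (0.055), and in labelled PARP3-/- cells without vehicle replicate 2 (0.072) or 3 (0.0854) or pyridostatin replicate 1 (0.07) or 2 (0.0788). Among the genotype and pyridostatin comparisons, those with a group in common, such as both comparisons that use WT vehicle, are not independent.

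The other feedback regulators were not called after pyridostatin. BIRC3 had a log2 fold change of -0.09 in WT (limma adjusted p = 0.399) and of -0.14 in labelled PARP3-/- cells (adjusted p = 0.186), where the pyridostatin libraries lay below the vehicle libraries without overlap, as for 15.7% of all genes. NFKBIA had a log2 fold change of 0.02 in WT (adjusted p = 0.899) and of 0.12 in labelled PARP3-/- cells (adjusted p = 0.235), there with all pyridostatin libraries above those with vehicle, as for 16.6% of all genes. TNFAIP3 was the only other gene of the 8 in which this was seen.

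The chemokines had negative log2 fold changes in WT cells after pyridostatin, none of which was called. CXCL5 had a log2 fold change of -0.26 in WT (limma adjusted p = 0.183) and of -0.11 in labelled PARP3-/- cells (adjusted p = 0.603). For CXCL1 it was -0.22 in WT (adjusted p = 0.173) and 0.06 in labelled PARP3-/- cells (adjusted p = 0.757), and in WT it was -0.33 without WT pyridostatin replicate 2 (adjusted p = 0.0156). For CXCL2 it was -0.08 in WT (adjusted p = 0.705) and -0.02 in labelled PARP3-/- cells (adjusted p = 0.949).

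ICAM1 was next nearest to a call in WT cells, where the pyridostatin libraries lay below all vehicle libraries, as for 9.71% of all genes (log2 fold change -0.24, SE 0.0688, limma adjusted p = 0.0799). It passed at an adjusted p of 0.0477 without WT pyridostatin replicate 2 of 0.0479 with quantile normalization and of 0.0486 with a common median. In labelled PARP3-/- cells its log2 fold change was -0.03 (adjusted p = 0.86). LIF had a log2 fold change of -0.02 in WT (adjusted p = 0.894) and of -0.04 in labelled PARP3-/- cells (adjusted p = 0.815).

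IL6 had a mean of 0.341 FPKM with pyridostatin and 0.137 FPKM with vehicle in labelled PARP3-/- cells, without overlap (exact permutation test, p = 0.1, the smallest possible), and of 0.24 and 0.22 FPKM in WT (p = 0.9). Over both genotypes the means were 0.29 FPKM with pyridostatin and 0.179 FPKM with vehicle (exact permutation test within genotypes, p = 0.105). One library decided this value, since p = 0.015 by the same exact test without WT vehicle replicate 2. IL1A had means of 0.419 FPKM with and 0.408 FPKM without pyridostatin over both genotypes (exact permutation test, p = 0.86).

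Whether the pyridostatin effect differed between the genotypes was tested as an interaction. In limma 0 of the 8 genes and 0% of all 11881 genes were called, while 1 of the 8, and 521 genes or 4.39% of all, had an unadjusted p under 0.05. CXCL1 was that gene, with an interaction of 0.28 on the log2 scale (SE 0.118, limma adjusted p = 0.999). For ICAM1 the interaction was 0.21 (SE 0.0973, limma adjusted p = 0.999). For TNFAIP3 it was -0.0068 (SE 0.0829). A different pyridostatin effect between the genotypes was therefore not shown for any of the 8 genes, including ICAM1, whose genotype difference was called with vehicle and not with pyridostatin.

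**Figure D3:**
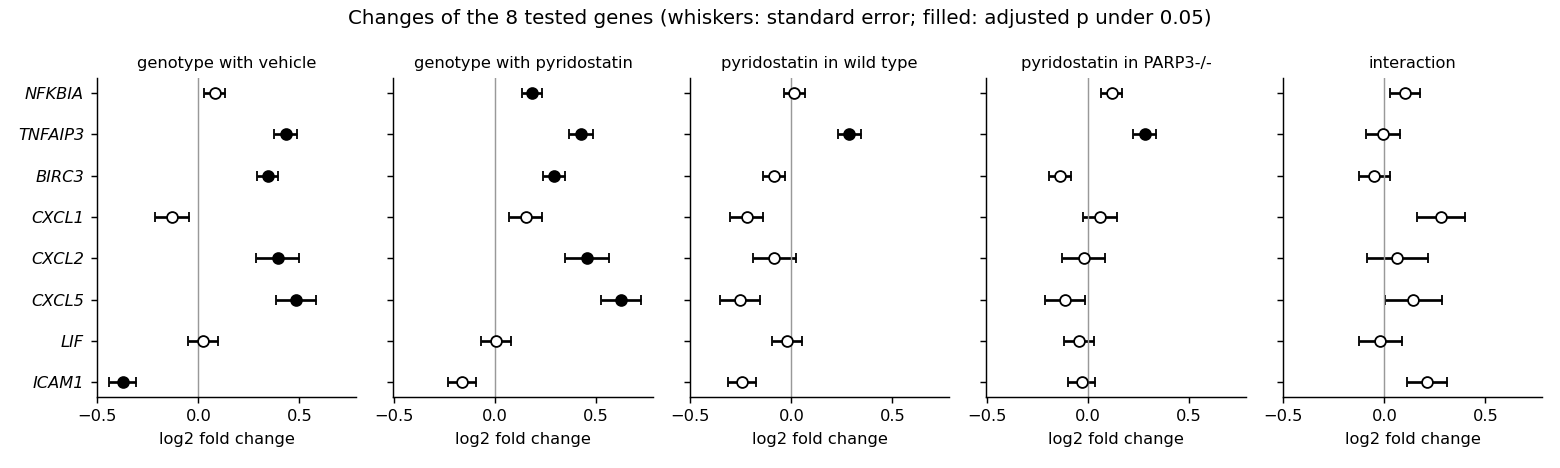
Log2 fold change on the log2(FPKM + 1) scale, with its standard error (whiskers), of the 8 tested genes in the genotype comparisons (labelled PARP3-/- minus WT), the pyridostatin comparisons (pyridostatin minus vehicle) and their interaction. Filled points have a limma adjusted p under 0.05: 5 genes in each genotype comparison, TNFAIP3 alone in each pyridostatin comparison, and none in the interaction.

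The 8 tested genes were then compared by the shape of their profiles over the 12 libraries, each centred and scaled to its SD. The measure was the root mean square difference between profiles, which is 0 for the same shape, and it is a description over libraries that share their groups. Of 28 pairs the closest was CXCL5 with BIRC3 (0.369), followed by CXCL2 with BIRC3 (0.537) and CXCL2 with CXCL5 (0.552). NFKBIA was closest to TNFAIP3 among the 8 (0.727), as both were highest in the labelled PARP3-/- libraries with pyridostatin. TNFAIP3 and ICAM1 were the farthest apart (1.83).

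Among the other 11872 names compared, the gene with the profile nearest to TNFAIP3 was DIO2, a thyroid hormone deiodinase (0.181, beside a median of 1.29 over all genes). DIO2 was at 8.86 to 11.6 FPKM in WT vehicle, 13.0 to 13.2 in WT pyridostatin, 16.2 to 18.3 in labelled PARP3-/- vehicle and 21.3 to 22.1 FPKM in labelled PARP3-/- pyridostatin libraries, the same order of groups. The nearest profile to CXCL5 was that of G3BP1, a stress granule protein (0.197), to BIRC3 that of SH3KBP1 (0.232), and to CXCL2 that of MCL1, an inhibitor of apoptosis (0.33). NFKBIA was nearest to ZDHHC1 (0.324), CXCL1 to FAM72D (0.344), ICAM1 to VASN (0.375) and LIF to PPP1R3E (0.466). The mean profile of the 8 genes was nearest to MLKL (0.456), SEMA3B (0.462), TMEM74B (0.476), RRAS2 (0.478) and TNFAIP8 (0.484), against a median of 1.34.

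The rest of the pathway was described with 10 lists of 113 further genes, 84 of which were tested. With vehicle 29 of the 84 were called, 27 higher and 2 lower in labelled PARP3-/- cells (34.5%, beside 9.41% of all genes). With pyridostatin 28 were called, all higher (33.3%, beside 10.9%). Both counts include IL1B, which reached the mean of 1 FPKM only through the labelled PARP3-/- groups. The median log2 fold change over the 84 genes was 0.09 and 0.12. Of the 113 genes, 7 from the chromosome 6 major histocompatibility region, including TNF, LTA and LTB, were listed at 0 in every library, as were 6 further genes of that region that many cells use, so their expression cannot be read from this table.

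Upstream of the 10 genes, none of the tested receptors was called. Of 9 tested receptors of the TNF, IL-1, IL-17, lymphotoxin, Toll-like and NOD families, 0 were called between genotypes by limma, with 2 at an unadjusted p under 0.05 with vehicle (21.6% of all genes) and 3 with pyridostatin (24% of all genes). The highest were TNFRSF1A, the main TNF receptor (mean 147 FPKM), LTBR (76 FPKM) and IL17RC (5.57 FPKM). Of the 15 genes of this list, 6 had a mean under 1 FPKM and were not tested. IL1R2 had means of 0.576 FPKM in WT and 0.214 FPKM in labelled PARP3-/- libraries with vehicle, and of 0.406 and 0.173 FPKM with pyridostatin. TLR4 also had lower means, at 0.282 and 0.128 FPKM with vehicle and 0.275 and 0.129 FPKM with pyridostatin. Neither gene overlapped between genotypes, and among all tested genes this order was seen for 9.17% with vehicle and 15.9% with pyridostatin. TNFRSF1B had a higher mean without overlap with vehicle only (0.0949 and 0.193 FPKM), as for 15% of all tested genes. TLR2, IL1RN and NOD2 overlapped between genotypes. These 6 genes were near the limit of detection and had no test, so no difference is claimed for them. Of the NF-kB subunits, 2 of 5 were higher in both comparisons, beside 6.4% of all genes with vehicle and 7.07% with pyridostatin. RELB had a log2 fold change of 0.22 with vehicle and 0.37 with pyridostatin, and NFKB2, its usual partner, of 0.19 and 0.23.

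Of 5 further genes of the IkB family, 1 was called with vehicle and 2 with pyridostatin, beside 9.41% and 10.9% of all genes. NFKBIZ was higher with vehicle (log2 fold change 0.40) and with pyridostatin (0.56), and NFKBIE with pyridostatin (0.25). IRAK2, of the IL-1 receptor pathway, had the largest change among 13 pathway kinases and kinase partners (0.56 with vehicle and 0.59 with pyridostatin). In each comparison 3 of the 13 were called, beside 9.41% and 10.9% of all genes. The others were IKBKG in both, IKBKE with vehicle and MAP3K14 with pyridostatin. Of 14 adaptors and ubiquitin factors, 3 were called with vehicle and 2 with pyridostatin, beside 9.41% and 10.9% of all genes. TRAF1 (0.45 and 0.30), TNIP1, a partner of TNFAIP3 (0.20 and 0.19), and, with vehicle, BIRC2, the paralog of BIRC3 (0.14), were higher. All had a limma adjusted p under 0.05.

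Among other cytokines, 4 of 5 tested were higher in both comparisons, beside 6.4% of all genes called higher with vehicle and 7.07% with pyridostatin. CSF2, which encodes the myeloid growth factor GM-CSF, was at 4.96, 7.19 and 6.22 FPKM in WT vehicle and 23.5, 18.6 and 17.7 FPKM in labelled PARP3-/- vehicle libraries (log2 fold change 1.56, SE 0.146, limma adjusted p = 5.34e-05), and at 5.45 to 6.11 and 15.1 to 21.2 FPKM with pyridostatin (1.46, adjusted p = 8.99e-05). CSF2 was the one listed gene past both thresholds. IL1B, the other main IL-1 gene beside IL1A, was at 0.249 to 0.812 FPKM in WT and 1.52 to 2.05 FPKM in labelled PARP3-/- libraries (log2 fold change 0.74 with vehicle and 0.89 with pyridostatin). IL1B reached the mean of 1 FPKM only through the labelled PARP3-/- groups, so its calls, which are counted among the 4, are no support. IL32 (0.62 and 0.80) and IL11 (0.41 and 0.55) were also higher.

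Of 16 other NF-kB targets tested, 9 were higher with vehicle (6.4% of all genes) and 10 with pyridostatin (7.07%), and 0 were lower. BCL2A1, an inhibitor of apoptosis, had a log2 fold change of 0.84 with vehicle and 0.98 with pyridostatin, and PLAU, the urokinase protease, of 0.55 in both. The acute phase gene SAA2 (0.63 and 0.52) and complement C3 (0.45 and 0.47) were higher in both comparisons, as was LCN2 (0.42 and 0.55). SAA1 was higher with vehicle (0.55) and had a log2 fold change of 0.40 with pyridostatin (limma adjusted p = 0.0766). Of 9 tested genes of IL-6 and LIF signalling, 3 were called with vehicle and 2 with pyridostatin, beside 9.41% and 10.9% of all genes. The median log2 fold change of this list was 0.034 and 0.075. SOCS3, a feedback inhibitor (0.62 and 0.67), and STAT3 (0.28 and 0.26) were higher, while CEBPB was lower with vehicle (-0.65). Of 4 tested receptors of the 10 genes' products, none was called between genotypes by limma (0 and 1 at an unadjusted p under 0.05), with IL6ST at a mean of 21.2 FPKM, IL6R at 2.8 and LIFR at 1.5 FPKM, and CXCR2 at 0.00564 FPKM was not tested.

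**Figure D4:**
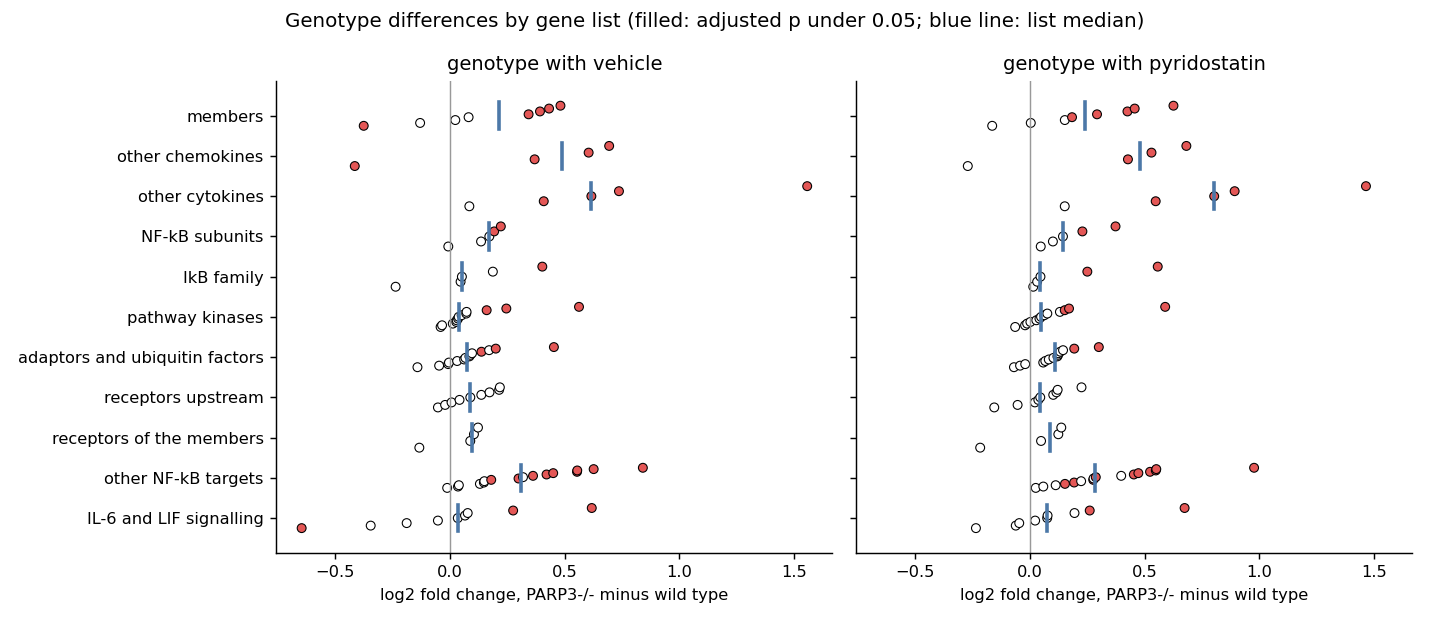
Log2 fold change between genotypes (labelled PARP3-/- minus WT, log2(FPKM + 1) scale) of each tested gene of the 10 genes (row marked members) and of 10 further pathway lists, with vehicle (left) and with pyridostatin (right). Filled points have a limma adjusted p under 0.05 and blue lines mark list medians. The called genes lie to the right of 0 except ICAM1, CCL20 and CEBPB with vehicle.

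Pyridostatin changed few genes of the lists, 3 of 84 in WT (3.57%, beside 4.17% of all genes) and 6 of 84 in labelled PARP3-/- cells (7.14%, beside 5.56%). TAB2, an adaptor of the kinase TAK1, rose in both genotypes (log2 fold change 0.64 in WT and 0.67 in labelled PARP3-/- cells). IL11 fell in both (-0.43 and -0.29), and CCL20 fell in WT (-0.54). In labelled PARP3-/- cells CEBPB (0.56), CSF1 (0.27), BCL2L1 (0.18) and TNFAIP2 (0.14) also rose. The interaction was called for 0 of the 84 genes, with 5 at an unadjusted limma p under 0.05.

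Finally, CXCL1, CXCL2 and CXCL5 lie in a cluster on chromosome 4, and its 9 protein-coding genes were listed after their values were seen. In the order of the chromosome these are CXCL8 (mean 97.6 FPKM), CXCL6 (0.00308), PF4V1 (0.0435), CXCL1 (134), PF4 (0.819), PPBP (0.114), CXCL5 (409), CXCL3 (43.4) and CXCL2 (72.2 FPKM). Of the 5 genes tested, all but CXCL1 were called higher in labelled PARP3-/- cells in both comparisons. Among all genes tested, 6.4% were called higher with vehicle and 7.07% with pyridostatin. CXCL2 and CXCL5 were already counted above, and the cluster was listed after its values were seen, so this count is no added support. CXCL8, which encodes interleukin-8, was at 72.0, 73.3 and 81.8 FPKM in WT vehicle and at 130, 125 and 115 FPKM in labelled PARP3-/- vehicle libraries (log2 fold change 0.69, limma adjusted p = 3.34e-05, and 0.68 with pyridostatin). CXCL3, whose promoter window holds the κB run of the neighbouring chemokines, was at 33.4, 34.8 and 38.5 FPKM and at 57.1, 60.2 and 47.1 FPKM (log2 fold change 0.60, adjusted p = 0.00188, and 0.53 with pyridostatin). The κB run of CXCL3 starts 79 bases before its start, as in CXCL1, in nearly the same surroundings. The windows of CXCL8, CSF2, IL1B and BCL2A1 held no match, which says only that the consensus is not within these bases. Of the 75-base windows of CXCL3 transcripts, 4.57% also occur in those of CXCL1, CXCL2 or CXCL5.
CXCL3, chr4:74038749-74038778, minus strand: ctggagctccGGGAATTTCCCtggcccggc

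Elsewhere, the chemokine CCL2 was higher in both comparisons (0.37 and 0.43), and CCL20 was lower with vehicle (-0.41, limma adjusted p = 0.0318). CXCL1 thus differed from its called neighbours in its values, but no test between genes was made.

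**Figure D5:**
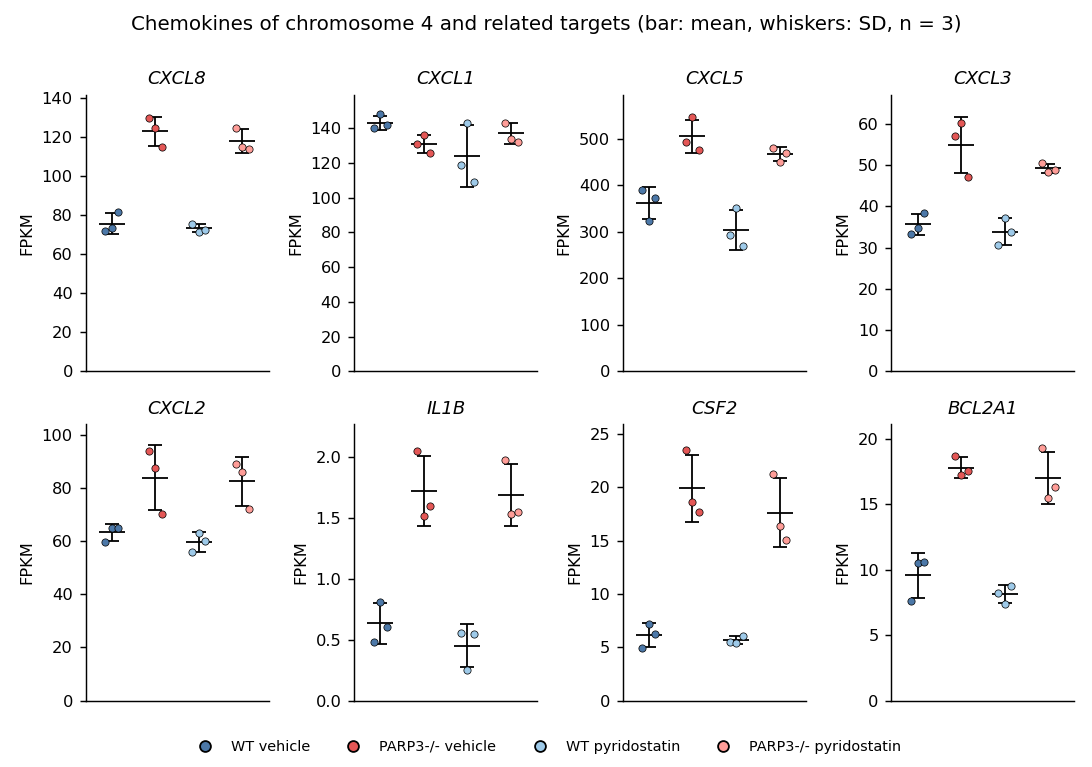
Level in FPKM of the 5 expressed chemokine genes of the chromosome 4 cluster, in chromosome order, and of IL1B, CSF2 and BCL2A1 in the 12 libraries, with the group mean (bar) and SD (whiskers, n = 3). CXCL8, CXCL5, CXCL3, CXCL2, IL1B, CSF2 and BCL2A1 are higher in all labelled PARP3-/- libraries than in all WT libraries, and CXCL1 is not. The share of all genes in this order was not counted.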

How the data were processed

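RNA was sequenced from A549 cells in 12 libraries, 3 in each of 4 groups taken from the sample labels. The authors deposited FPKM values from Cufflinks (version not given in the sources used here), 1 column per library. The submitters' processing notes also name STAR 2.5, bcl2fastq 2.16 and the builds hg19 and mm9, without saying which was used where. The counts behind the study's DESeq2 tests were not used here, so no count test was made.

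Values were tested as log2(FPKM + 1) for the 11881 genes whose mean reached 1 FPKM, with limma 3.58.1 in R 4.3.3 (1 model of the 4 groups, no block, eBayes with a trend, Benjamini-Hochberg adjustment). PARP3, IL1A and IL6 were compared by exact two-sided permutation tests. The procedure was tested on simulated data. Depth was estimated from steps between low values (248 genes, transcript lengths from GENCODE release 29). Between 32.7% and 39% of low values lay at the common step, so no whole reads were recovered. Replicate libraries correlated at 0.956 to 0.969 and libraries of different groups at 0.953 to 0.971, and none were identical. Profiles, depth and promoter windows were computed with numpy 2.4.6 and pandas 2.3.3 under Python 3.11.15, and plots used matplotlib 3.10.9.

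The 10 genes and the pathway lists were chosen with earlier results of these data known. All 10 genes were named, together with up to 5 called genes per list and comparison with the largest changes (or, with none called, up to 3 with the highest mean) and the genes of nearest profile. Alternatives were a pseudocount of 0.1, no filter or a minimum mean of 5 FPKM, quantile normalization, a common median, no trend, only the libraries of a comparison, a replicate block, and leaving out each library.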

Additional observations from a re-analysis of the deposited data

How the results depend on the processing

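The 12 called changes of the 10 genes kept their sign in all 239 alternatives run and lost the call in 40. Many alternatives, such as no trend or leaving out a library outside the comparison, cannot change the log2 fold change. The sign was fixed in advance there, so the kept signs are not taken as support. Genes that were called in fewer settings were CXCL2, NFKBIA and, for pyridostatin, TNFAIP3, and the cause was not tested. With only the libraries of a comparison, 3 of the 10 genes and 532 of all genes were called between genotypes with vehicle, where CXCL2 (adjusted p = 0.13) and BIRC3 (0.0528) missed, and 0 and 65 for pyridostatin in WT, where fewer libraries estimate the spread. Pyridostatin in WT gave 2 called genes with quantile normalization, a common median or the replicate block, ICAM1 being the added one (-0.24 with the block, adjusted p = 0.0464). The interaction called 1 of all genes with a pseudocount of 0.1 or without the filter. Same-numbered libraries deviated together by correlations of -0.12 to 0.216, and differently numbered ones by -0.152 to 0.124. For genotype with vehicle these were 0.0663 to 0.103 and -0.068 to -0.0195, and for pyridostatin in PARP3-/- 0.0597 to 0.216 and -0.152 to 0.0673. The same-number values had mixed signs in the other comparisons. These values do not settle whether replicate numbers are pairs, and the main fit did not pair them.

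Signs turned only for values that were not called. With a common median LIF was at -0.0162 (genotype, vehicle) and -0.0235 (genotype, pyridostatin), NFKBIA at -0.0174 (pyridostatin, WT) and the TNFAIP3 interaction at 0.0055. With quantile normalization LIF was at -0.0064 (genotype, pyridostatin) and 0.002 (pyridostatin, WT), CXCL2 at 0.0168 (pyridostatin, PARP3-/-) and the TNFAIP3 interaction at 0.0093.

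Leaving out 1 library gave 3 to 5 called genes of the 10 (746 to 1644 of all genes) between genotypes with vehicle, 3 to 6 (806 to 2298) with pyridostatin, 0 to 2 (178 to 706) for pyridostatin in WT, 0 to 1 (254 to 1559) in PARP3-/- and 0 (0 to 1) for the interaction. The counts of 2298 and 1559 came without WT vehicle replicate 2. Neither comparison uses this library, but it enters their estimate of the spread. The permutation differences ranged from 0.508 to 0.593 FPKM for IL1A between genotypes, from -0.0182 to 0.0664 for IL1A with pyridostatin, from -0.0265 to 0.0518 for IL6 between genotypes and from 0.0768 to 0.155 for IL6 with pyridostatin. The genotype value of LIF ranged from -0.0616 to 0.1058 with vehicle and from -0.0301 to 0.0558 with pyridostatin. For pyridostatin in WT, NFKBIA ranged from -0.0206 to 0.0703 and LIF from -0.0481 to 0.0017. In PARP3-/-, CXCL2 ranged from -0.1401 to 0.0732, ICAM1 from -0.0853 to 0.0156 and LIF from -0.1252 to 0.0423. Interactions ranged from -0.0678 to 0.043 for TNFAIP3, -0.0554 to 0.1579 for CXCL2, -0.1021 to 0.0654 for LIF and -0.0996 to 0.0039 for BIRC3.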
